A study of Mus musculus with 8 samples.

Results

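The 10 genes described here mark fat cells: Adipoq, Lep, Retn, Cfd, Pparg, Fabp4, Plin1, Plin4, Cidec and Lipe. They were chosen by name, as genes that adipocytes of the dermal fat layer express, out of 20128 genes with a named probe on the array. Their RNA was measured in 8 pieces of skin from C57BL/6N mice. Of these, 2 came from hair loss patches of Cchcr1 mutants, 4 from normal-looking skin of Cchcr1 mutants and 2 from normal skin of wild type mice. Cchcr1 encodes a coiled-coil protein, and the mutants were made by allele-specific CRISPR/Cas9 editing to study patchy hair loss of the kind seen in alopecia areata. The exact allele, age and sex of the mice are not given in the sources used here.

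The sample titles carry the names Mutant097, Mutant113 and Wild001. Mutant097 stands on hair loss replicate 1 and on normal skin replicates 1 and 2 of the mutants. Mutant113 stands on hair loss replicate 2 and on normal skin replicates 3 and 4. Both wild type samples were titled Wild001, so genotype and title name cannot be told apart against wild type. The labels do not say whether a name stands for 1 animal, and where samples share an animal the p-values measure only the spread between pieces of skin. The arrays shared 1 slide: the 3 samples titled Mutant097 and the hair loss sample titled Mutant113 lay in row 1, and the other 4 samples in row 2. The 75th percentile of the signal ran from 83.1 to 211 intensity units, and 25421 to 30205 probes per array lay well above background. All 10 genes were well above background on all 8 arrays. The skin therefore held fat cell RNA in every group, while 4 of 5 milk genes of mammary epithelium (Csn1s1, Csn2, Csn3 and Wap) and Ucp1, which defines heat-producing fat, were not well above background on any array. The remaining milk gene, Lalba, was well above background on all 8.

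Beneath the dermis of the mouse lies a sheet of white fat cells that surrounds the lower ends of growing hair follicles. This layer thickens while hair grows and thins while follicles rest, and its cells send signals to the follicle. A fat cell is built by the nuclear receptor PPAR-gamma together with C/EBP transcription factors, which switch on genes for taking up, storing and releasing fat and for secreting hormones such as leptin and adiponectin. Because whole skin was profiled, fewer fat cells and less RNA per fat cell cannot be told apart.

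RefSeq start-site windows on mouse build GRCm38.p6, 250 bases before to 50 bases after each annotated start, were at hand for 9 of the 10 genes, with 13 windows in all. Shown here are the 250 bases before the start for Lep, the gene whose level lay farthest from wild type, and for Plin1 and Adipoq, which define the fat cell and whose levels lay closer to wild type. Capitals mark the matches to the motifs searched on both strands, each read 5′ to 3′ on the strand of the gene. The Lep stretch is chr6:29059971-29060220 (plus strand), the Plin1 stretch chr7:79732777-79733026 (minus strand) and the Adipoq stretch chr16:23146286-23146535 (plus strand).
Lep: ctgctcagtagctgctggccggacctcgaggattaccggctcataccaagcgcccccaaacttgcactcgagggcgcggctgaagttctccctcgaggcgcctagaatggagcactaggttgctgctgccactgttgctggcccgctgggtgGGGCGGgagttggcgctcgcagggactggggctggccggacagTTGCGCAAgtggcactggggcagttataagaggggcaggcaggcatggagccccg
Plin1: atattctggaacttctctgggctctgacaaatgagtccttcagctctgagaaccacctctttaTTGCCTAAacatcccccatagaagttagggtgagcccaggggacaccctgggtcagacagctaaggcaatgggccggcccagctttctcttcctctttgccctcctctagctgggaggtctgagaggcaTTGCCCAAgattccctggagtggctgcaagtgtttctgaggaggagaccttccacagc
Adipoq: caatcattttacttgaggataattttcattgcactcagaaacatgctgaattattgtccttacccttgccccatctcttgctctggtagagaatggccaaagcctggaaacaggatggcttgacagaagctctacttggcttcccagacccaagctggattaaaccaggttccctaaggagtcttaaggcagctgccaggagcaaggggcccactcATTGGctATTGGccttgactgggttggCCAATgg
The Lep stretch held TTGCGCAA, of the C/EBP type TTGCNNAA and the same on both strands, starting 55 bases before the start, and the Sp1-type GGGCGG starting 98 bases before it. Plin1 held C/EBP-type matches, TTGCCTAA and TTGCCCAA, starting 187 and 58 bases before the start. Adipoq held CCAAT, once as written and otherwise as its complement ATTGG, starting 34, 27 and 7 bases before the start. Over the full windows, TTGCNNAA was found in 4 of the 13 windows of these genes and in 10.8% of 32851 windows of all genes, and CCAAT in 4 of 13 and 37.4%. GGGCGG was found in 4 of 13 windows and in 35.7% of all windows, TATAAA in 1 of 13 and 13.6%, the E-box CACGTG in 1 of 13 and 7.15%, and DR1, the PPAR-type direct repeat of AGGTCA spaced by 1 base, in 0 of 13 and 0.0396%. No motif searched overlapped another in the 3 stretches shown. These matches describe the letters only, and no binding was measured.

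Between hair loss skin and normal skin of the mutants no difference in fat cell RNA was detected, and the intervals, which reach down to -1.20 (Retn) and up to 0.99 (Lipe), do not show that the amounts are alike. Of the 10 genes 5 lay higher and 5 lower in hair loss, with a median difference of -0.02 on the log2 scale against -0.01 for all probes tested. No gene passed the test (limma, adjusted p under 0.05 over 30417 probes), and 0 of 10 had an unadjusted p under 0.05. Over all probes 0% was called, with 1582 at an unadjusted p under 0.05, so the fat cell genes did not differ from the array as a whole in having no call. Between normal skin of the mutants and wild type none of the genes passed the test either. There 9 of 10 genes lay higher, against 46.4% of all probes, with a median of 0.21 against -0.04. Lep and Fabp4 had an unadjusted p under 0.05, 2 of 10 genes against 17.2% of all probes. The groups did not overlap for Lep and Fabp4, which were higher, and Cfd, which was lower, where 28.3% of all probes did not overlap. In what follows a level is the log2 signal of a probe relative to the 75th percentile of its array, which is 0, and a difference is between group means of such levels.

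**Figure D1:**
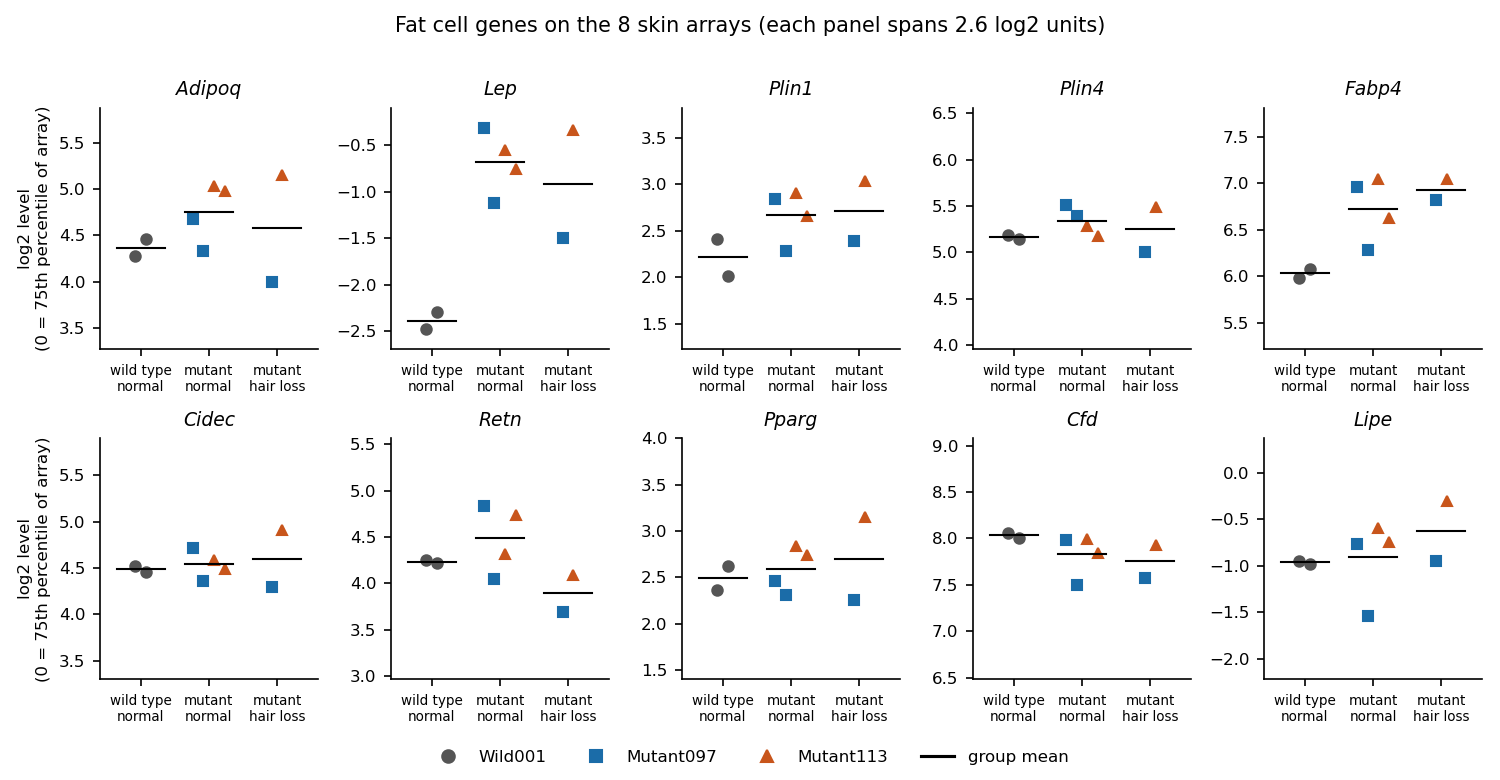
Level of each fat cell gene on the 8 arrays (log2, 0 is the 75th percentile of the array), with 1 symbol per array, shaped by title name, and a line at each group mean. Every panel spans the same number of log2 units. For Lep the wild type arrays, at -2.48 and -2.30, lie below the 6 mutant arrays, and for most other genes the groups overlap.

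Among the secreted products, Lep, the hormone that reports fat stores to the brain, varied most. Its level was -2.48 and -2.30 in wild type skin. Normal skin of the mutants gave -0.31, -1.12, -0.55 and -0.75 (replicates 1 to 4), and hair loss skin gave -1.50 and -0.34 (replicates 1 and 2). Every mutant array therefore lay above both wild type arrays, while hair loss and mutant normal skin overlapped. The normal skin of mutants was above wild type by 1.71 (SE 0.35, 95% interval 0.90 to 2.52), a 3.27-fold difference whose unadjusted p was 0.00133 and whose adjusted p of 0.09 missed the threshold. Hair loss skin exceeded wild type by 1.47 (SE 0.40, interval 0.54 to 2.41, adjusted p = 0.0932). Without hair loss replicate 2 that difference was 0.89 and without replicate 1 it was 2.05. It was 0.71 with another background method (normexp), which also used median signals, an offset of 50 and quantile normalization. That setting therefore does not isolate the background correction. Hair loss differed from mutant normal skin by -0.24 (SE 0.35, interval -1.05 to 0.57, adjusted p = 0.999). Over the alternatives tried, the difference between mutant normal skin and wild type ran from 0.83, with the normexp setting, to 1.85. Its adjusted p fell under 0.05 only for Mutant113 normal skin alone (limma, 0.0491). That is a subset added after the values were seen, not another processing of all mutant normal arrays.

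Adipoq encodes adiponectin, the most abundant fat cell hormone in blood. Its level was 4.27 and 4.46 in wild type, against 4.67, 4.33, 5.03 and 4.98 in normal skin of mutants, and hair loss skin gave 4.0 and 5.15. Both the lowest and the highest array were hair loss samples, so the groups overlapped in each comparison with hair loss. Hair loss differed from mutant normal skin by -0.18 (SE 0.34, interval -0.97 to 0.62), and mutant normal skin from wild type by 0.39 (SE 0.34, interval -0.41 to 1.18, adjusted p = 0.594).

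Retn encodes resistin, which mouse fat cells secrete. Its level was 4.25 and 4.22 in wild type, against 4.84, 4.05, 4.32 and 4.74 in normal skin of mutants, and hair loss skin gave 3.69 and 4.09. Both hair loss arrays lay below both wild type arrays, and 1 of them below all 4 mutant normal arrays. Retn had the largest difference of the 10 genes between hair loss and mutant normal skin, -0.59 (SE 0.26, interval -1.20 to 0.01), with an unadjusted p of 0.0527 and an adjusted p of 0.957. Over 19 alternatives this difference ran from -0.79 to -0.39. Some of these, such as another probe filter or leaving out a wild type array, could not change it.

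Cfd encodes adipsin, or complement factor D, a protease that fat cells release. It was the steadiest of the secreted products, with 8.06 and 8.01 in wild type, 7.50 to 7.99 in mutant normal skin, and 7.58 and 7.93 in hair loss. All 6 mutant arrays lay below both wild type arrays, by a mean of 0.20 to 0.28 log2. The differences were -0.20 (SE 0.21, adjusted p = 0.646) for mutant normal skin and -0.28 (SE 0.24, adjusted p = 0.483) for hair loss against wild type. Cfd was thus lower in mutants where Lep and Fabp4 were higher, without passing the test.

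Pparg, the nuclear receptor that directs fat cell formation, lay at 2.36 and 2.62 in wild type, between 2.31 and 2.84 in mutant normal skin, and at 2.25 and 3.15 in hair loss. As for Adipoq, the extremes over the 8 arrays were the hair loss samples. Its differences between groups were 0.11 for hair loss against mutant normal skin (SE 0.28, interval -0.54 to 0.77) and 0.10 for mutant normal skin against wild type (SE 0.28, interval -0.56 to 0.75).

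Fabp4 carries fatty acids within the fat cell. Its level was 5.98 and 6.08 in wild type, against 6.96, 6.28, 7.04 and 6.63 in normal skin of mutants, and hair loss skin gave 6.82 and 7.05. As for Lep, no mutant array reached down to the wild type range. Wild type was exceeded in mutant normal skin by 0.70 (SE 0.24, interval 0.14 to 1.26), or 1.62-fold, with an unadjusted p of 0.0212 and an adjusted p of 0.219. Hair loss exceeded wild type by 0.90 (SE 0.28, interval 0.26 to 1.55, adjusted p = 0.114) and mutant normal skin by 0.21 (SE 0.24, interval -0.35 to 0.77). Fabp4 is also expressed in endothelium and macrophages. The summed level of 6 macrophage genes was 128 to 140 in wild type and 53.5 to 98.4 in the mutant arrays, and that of 7 endothelial genes 24.6 to 45.0 and 19.2 to 34.8. The part of these cells in the level of Fabp4 was not tested.

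No difference between groups was detected for the droplet coat genes. Plin1 guards the fat droplet from lipases, and its level was 2.41 and 2.02 in wild type, 2.28 to 2.91 in mutant normal skin, and 2.39 and 3.03 in hair loss. Its difference between mutant normal skin and wild type was 0.46 (SE 0.27, interval -0.16 to 1.08, adjusted p = 0.418). Between hair loss and wild type it was 0.50 (SE 0.31, interval -0.22 to 1.21, adjusted p = 0.349). Plin4 coats small droplets as they form and had the narrowest range of all, 5.01 to 5.51, with both limits in mutant skin. Plin4 differed by 0.17 between mutant normal skin and wild type (SE 0.19, interval -0.28 to 0.62) and by -0.09 between hair loss and mutant normal skin (SE 0.19, interval -0.54 to 0.36).

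Cidec, which joins droplets into large ones, ranged from 4.29 to 4.91, and both limits were hair loss arrays. By its brighter probe it differed by 0.06 between hair loss and mutant normal skin (SE 0.21) and by 0.05 between mutant normal skin and wild type (SE 0.21). A second Cidec probe gave -0.66 for mutant normal skin against wild type (SE 0.45, adjusted p = 0.488) and 0.01 for hair loss against mutant normal skin (SE 0.45). The direction of Cidec against wild type therefore depended on the probe. Lipe, the hormone-sensitive lipase that releases stored fat, ranged from -1.54 to -0.31 and differed by 0.28 between hair loss and mutant normal skin (SE 0.31, interval -0.43 to 0.99).

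**Figure D2:**
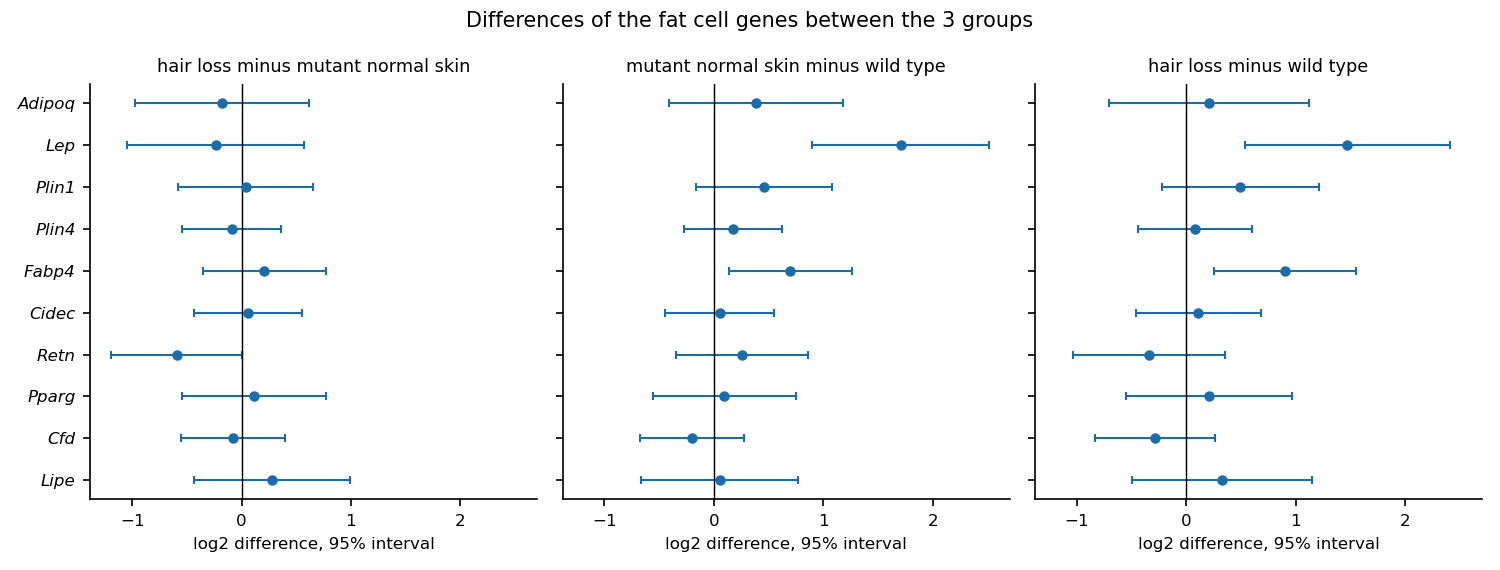
Difference of each fat cell gene in the 3 comparisons between groups, in log2 units, with 95% intervals from the limma model. The intervals for Lep and Fabp4 against wild type lie above 0 in both comparisons, from 0.14 upward, and all intervals for hair loss against mutant normal skin include 0.

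The 3 comparisons share arrays, so their values are given side by side and do not support each other. Against wild type, 0.694% of probes were called in mutant normal skin and 1.42% in hair loss, and 0 of the 10 genes in either, with 2 of 10 (Lep and Fabp4) at an unadjusted p under 0.05 in each. Of all probes, 17.2% and 24.8% had such a p in these comparisons, so 2 of 10 is about the share of the whole array. The intervals for the other 8 genes included 0 in both comparisons. Groups did not overlap for 3 of 10 genes between mutant normal skin and wild type (Lep and Fabp4 higher, Cfd lower), where 28.3% of all probes did not overlap. They did not overlap for 4 of 10 between hair loss and wild type (Retn lower besides), against 53.3% of all probes, and for 0 of 10 between hair loss and mutant normal skin, against 12.4%. With 10 genes, the shares without overlap, 3 of 10, 4 of 10 and 0 of 10, were near or below those of the whole array. Hair loss lay above wild type for 8 of 10 genes, against 45.8% of all probes, with a median of 0.21 against -0.06.

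The hair loss arrays pulled the comparison with mutant normal skin in opposite directions. Without hair loss replicate 1 (Mutant097), 9 of 10 genes were higher in hair loss and the median was 0.35. Without hair loss replicate 2 (Mutant113), 1 of 10 was higher and the median was -0.31. Against wild type the median of hair loss likewise went from 0.21 to 0.65 without replicate 1 and to -0.18 without replicate 2, when 4 of 10 genes were higher. With slide row as a block, the median was 0.067 for hair loss against mutant normal skin (7 of 10 higher), 0.30 for mutant normal skin against wild type (9 of 10) and 0.66 for hair loss against wild type (7 of 10), with 0 of 10 called in each.

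Paired by title name, the medians of the 10 genes had opposite signs. Within Mutant097, 8 of 10 genes were lower in the hair loss sample than in the mean of the 2 normal samples. Of all probes, 46.7% were higher in this comparison. The median of the 10 genes was -0.21 against -0.03 for all probes. Lep showed the largest difference there, -0.79 (SE 0.37, interval -1.71 to 0.13), followed by Retn at -0.75 (SE 0.38), Adipoq at -0.50 (SE 0.24) and Plin4 at -0.44 (SE 0.20). Fabp4 and Lipe were 0.20 higher each. The size of the Mutant097 difference rested on its normal samples: the median was -0.064 with 4 of 10 genes higher without normal skin replicate 1, and -0.44 with 0 of 10 higher without replicate 2. Within Mutant113, 9 of 10 genes were higher, against 54.4% of all probes, with a median of 0.26 against 0.03. These 9 ran from 0.01 for Cfd to 0.37 for Cidec (SE 0.24), and Retn was the exception at -0.43 (SE 0.38).

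Neither pairing gave a call among the 10 genes, while 0.628% of all probes were called within Mutant097 and 0.00329% within Mutant113 (1 probe). An unadjusted p under 0.05 was reached by 0 of 10 genes in each, against 13.0% and 4.8% of all probes. Each of these rests on 1 hair loss array. The difference between them was tested directly. It was above 0 for 10 of 10 genes, against 53.1% of all probes, with a median of 0.46 against 0.04. But 0 of 10 passed the test, and 0% of all probes did, with 2889 (9.5%) at an unadjusted p under 0.05. The largest was Lep, 1.1 (SE 0.52, interval -0.20 to 2.40, adjusted p = 0.591), and 1 of 10, Plin4 at 0.71 (SE 0.28), had an unadjusted p under 0.05, at 0.0499, with an adjusted p of 0.5261. Without mutant normal skin replicate 1, 6 of 10 genes remained above 0.

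**Figure D3:**
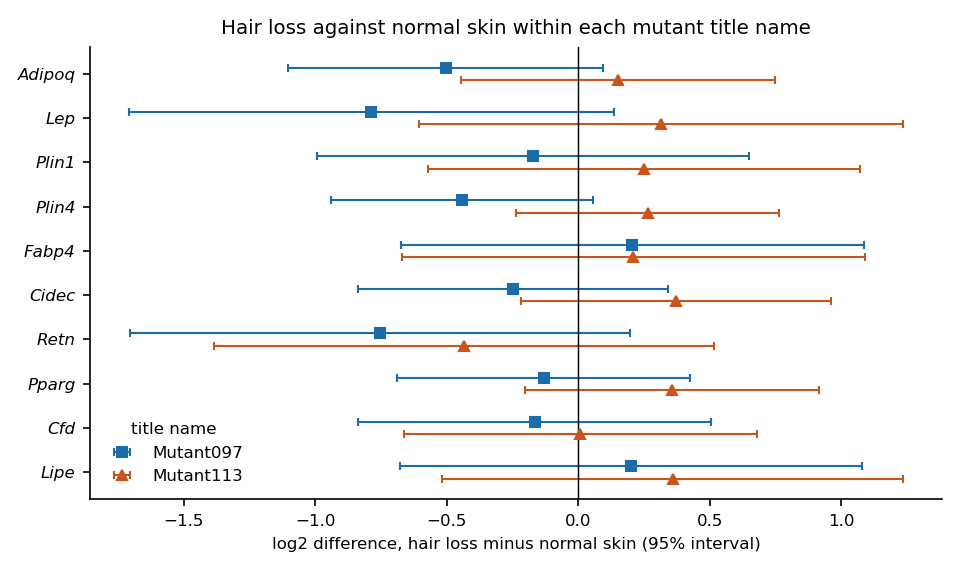
Hair loss minus normal skin for each fat cell gene within Mutant097 and within Mutant113, in log2 units, with 95% intervals. Each difference sets 1 hair loss array against 2 normal arrays. Points for Mutant097 lie mostly left of 0 and those for Mutant113 mostly right of it, with medians of -0.21 and 0.26, and all intervals include 0.

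Muscle and hair RNA also varied between the samples of each title name. The summed linear level of 12 skeletal muscle genes was 1342 in the hair loss sample of Mutant097 against 1867 and 1204 in its normal samples, and 458 in that of Mutant113 against 2392 and 2723. The summed level of 10 hair shaft and inner root sheath genes was 3669 against 1056 and 526 for Mutant097, and 1590 against 2400 and 1528 for Mutant113. The fat cell genes summed to 396 against 518 and 369 for Mutant097, and to 522 against 518 and 460 for Mutant113. The fat sums are carried by the brightest probes, Cfd above all. Of the 12 muscle genes, 10 were lower in hair loss within Mutant097 and 12 within Mutant113. Of the 10 hair genes, 10 were higher within Mutant097 and 1 within Mutant113. The part of tissue make-up in the split of the fat cell genes was not tested.

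In normal skin, Mutant113 and Mutant097 could be compared with 2 arrays each, which also differed in slide row. Adipoq was 0.50 higher in Mutant113 (SE 0.20, interval 0.01 to 0.99, unadjusted p = 0.0457, adjusted p = 0.306), Lipe 0.49 higher (SE 0.29) and Pparg 0.41 higher (SE 0.18). The other 7 genes lay between -0.22 for Plin4 and 0.23 for Plin1. None was called, where 0.266% of probes were, and 1 of 10 had an unadjusted p under 0.05, against 15.8% of all probes. The median of 0.20 became -0.09 without mutant normal skin replicate 2 and 0.48 without replicate 1.

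Set against wild type one at a time, both title names had more Lep. Mutant097 normal skin exceeded wild type by 1.68 (SE 0.30, interval 0.93 to 2.43, adjusted p = 0.0806), where 0.999% of probes were called. Mutant113 normal skin exceeded it by 1.74 (SE 0.30, interval 0.99 to 2.49, adjusted p = 0.0491), where 3.26% were called. These comparisons were added after the values were seen, and Lep of Mutant113 was the only call among the 10 genes in any comparison. Fabp4 exceeded wild type by 0.59 (SE 0.29) in Mutant097 and 0.81 (SE 0.29) in Mutant113, and Adipoq by 0.13 (SE 0.20) and 0.64 (SE 0.20).

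The mean course of the fat cell genes over the 8 arrays was as follows. With each gene centred on its own mean, the mean of the 10 was -0.27 and 0.38 in hair loss replicates 1 and 2, while normal skin replicates 1 to 4 of the mutants had 0.26, -0.25, 0.26 and 0.15. It was -0.27 and -0.26 in wild type. Samples of 1 group thus differed as much as the groups did: normal skin replicates 1 and 2, both Mutant097, lay 9 of 10 and 2 of 10 genes above their own means. Without Lep the wild type means were -0.15 and -0.16. The full range over arrays was 2.17 for Lep, a 4.52-fold span, then 1.24 for Lipe, 1.16 for Adipoq, 1.15 for Retn, 1.06 for Fabp4, 1.02 for Plin1 and 0.89 for Pparg. It was 0.62 for Cidec, 0.56 for Cfd and 0.50 for Plin4, a 1.41-fold span.

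Plin1 lay closest to this mean course, which each of the 10 genes is part of, with a root mean square distance of 0.13, and Lep lay farthest, with 0.58. Retn (0.31), Cfd (0.26) and Fabp4 (0.25) were about as far from it as the course itself varied (0.27). Among 12408 other genes well above background on all 8 arrays, those nearest to that course were Cdkn2c (0.08), Dync2li1 (0.08), Fgfrl1 (0.10), Acvr2a (0.11) and Tdrp (0.12), all nearer than any of the 10. The likeness is over 8 arrays only.

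The wider fat cell programme was followed in 8 further lists of genes. Between hair loss and mutant normal skin 0 genes of these lists were called. Among 10 adipocyte regulators the median difference was -0.11, and the largest differences were Klf15, a factor of late fat cell formation, at -0.55 (SE 0.37) and Cebpb, an early one, at 0.52 (SE 0.22). Klf15 lay at -0.070 without hair loss replicate 1 and at -1.03 without replicate 2. Lipid synthesis and uptake (19 genes) had a median of 0.09: Slc2a4, the insulin-regulated glucose transporter, lay at -1.02 (SE 0.39) and Elovl6, which lengthens fatty acids, at 0.85 (SE 0.34). Lipolysis and its control (10 genes) had a median of 0.04, with Angptl4, an inhibitor of lipoprotein lipase, at 0.75 (SE 0.25). These lists thus held genes on both sides of 0.

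The lipid droplet coat list (7 genes) had a median of 0.27 between hair loss and mutant normal skin, with Plin5, the coat protein of oxidative tissue, at -0.97 (SE 0.46) and Plin2, found on droplets of most cells, at 0.55 (SE 0.24). Thermogenic fat (5 genes tested) had a median of -0.67, and its leading genes, Cox7a1 at -1.66 (SE 0.42) and Cox8b at -1.64 (SE 0.45), encode respiratory chain subunits that muscle also expresses. The 12 muscle genes were all lower in the same comparison, by a median of -1.49, with summed levels of 458 and 1342 in hair loss and 1204 to 2723 in mutant normal skin. The part of muscle in these values, in Slc2a4 and in Plin5 was not tested. Secreted and receptor genes had a median of -0.08, fat precursor genes -0.16 and signals from dermal fat to hair 0.00, the last with the antimicrobial peptide gene Camp at 0.76 (SE 0.27). At an unadjusted p under 0.05 lay 1 of 10 regulators, 2 of 19 synthesis genes, 2 of 10 lipolysis genes, 4 of 5 thermogenic genes, 1 of 11 secreted genes and 1 of 5 signals, against 5.2% of all probes.

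Between mutant normal skin and wild type, 1 gene of these lists was called. Dio2, which activates thyroid hormone and is used by heat-producing fat, was 2.18 higher (SE 0.35, adjusted p = 0.0480), at -0.86 ± 0.35 (SD, n = 4) against -3.04 ± 0.84 (SD, n = 2), where wild type ran from -3.63 to -2.45 and 1 of 2 arrays was well above background. Leaving out any single array ended this call, with differences from 1.58 to 2.77, as did quantile normalization, no filter, array weights, slide row as a block and 1 mean per title name. The normexp setting gave 0.90 and also ended it. In hair loss Dio2 lay at 0.17 ± 0.04 (SD, n = 2), 3.21 above wild type (SE 0.41, adjusted p = 0.0171). That call was lost without hair loss replicate 1 or without either wild type array, with differences of 3.18, 2.62 and 3.81, and with 1 mean per title name. The normexp setting brought the difference to 1.59 and kept the call. The other 4 thermogenic genes tested were lower than wild type in both comparisons, so Dio2 did not move with its list, and its cell of origin was not measured.

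The other lists had medians near or below 0 in mutant normal skin against wild type. They were of -0.19 for regulators (2 of 10 higher), 0.01 for lipid synthesis (10 of 19) and 0.01 for lipolysis (6 of 10). They were -0.17 for droplet coat (0 of 7), -0.12 for secreted and receptor genes (5 of 11), -0.26 for precursors (2 of 7) and -0.01 for signals (2 of 5). In hair loss against wild type the droplet coat list had a median of 0.22 (4 of 7 higher), close to the 0.21 of the 10 fat cell genes, and the regulators -0.45 (2 of 10). Camp differed by -1.14, at -2.97 ± 0.21 (SD, n = 4) against -1.83 ± 0.21 (SD, n = 2; adjusted p = 0.122). Angptl4 was 0.67 higher in mutant normal skin (SE 0.25, adjusted p = 0.242) and 1.42 higher in hair loss (SE 0.29, adjusted p = 0.0596) than in wild type. With only probes above background on all 8 arrays tested, Angptl4 in hair loss was called (adjusted p = 0.0447), as was Cox8b at -2.35 (adjusted p = 0.0493). With slide row as a block, the precursor gene Ly6a was called at -1.76 (adjusted p = 0.0266). Cdh13, which encodes T-cadherin, a receptor that binds adiponectin, was called in hair loss against wild type, at 3.01 ± 0.08 (SD, n = 2) against 4.11 ± 0.04 (SD, n = 2), a difference of -1.10 (SE 0.20, adjusted p = 0.0482). It differed by -0.74 (SE 0.17, adjusted p = 0.121) in mutant normal skin. The Cdh13 call was lost when any array other than mutant normal skin replicate 3 was left out, with differences from -1.16 to -1.04, and also with no filter, with array weights and with 1 mean per title name.

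**Figure D4:**
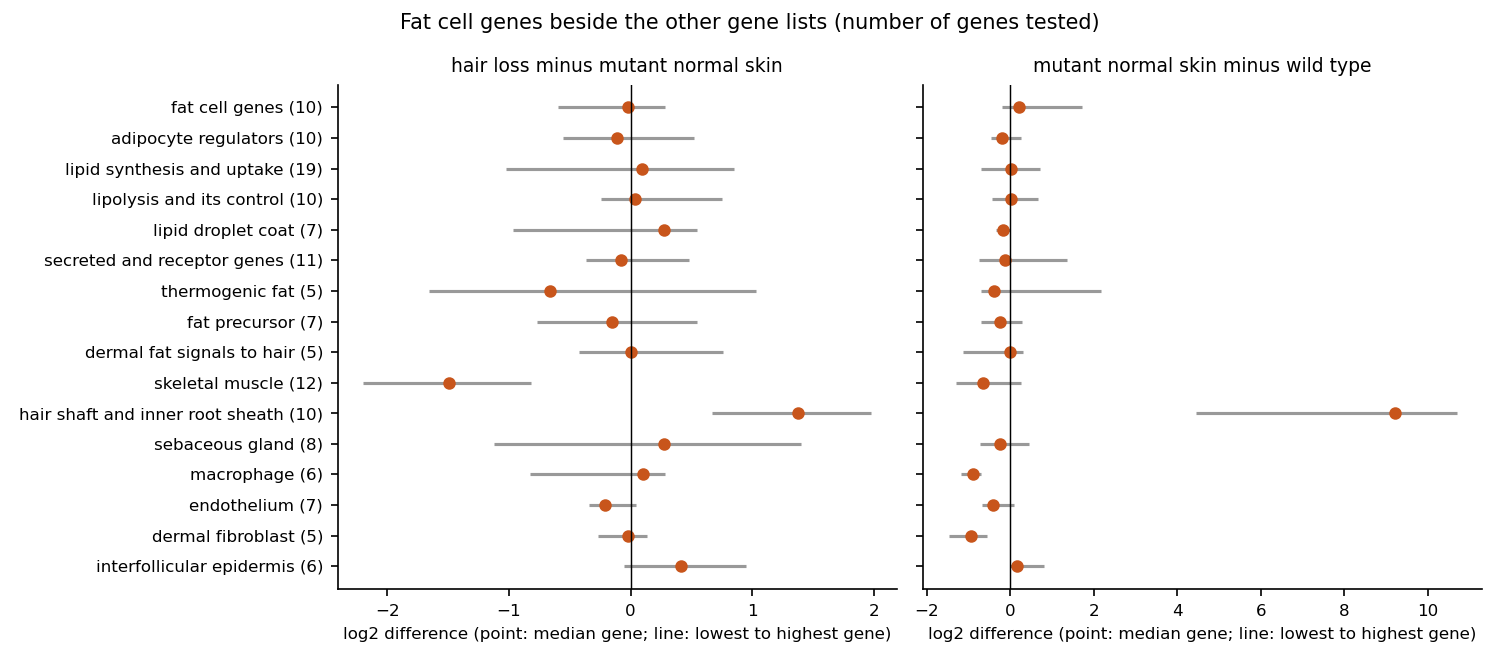
Median (point) and range (line) of the log2 differences over the genes of each list, for hair loss minus mutant normal skin (left) and mutant normal skin minus wild type (right), with the number of genes tested. The fat cell genes lie at -0.02 and 0.21, while the hair shaft and inner root sheath genes lie at 1.37 and 9.21 and the muscle genes at -1.49 and -0.66. The horizontal scales of the panels differ.

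Fat cell RNA differed far less between the groups than hair RNA did. The 10 hair shaft and inner root sheath genes summed to 526 to 2400 in mutant normal skin and 1590 to 3669 in hair loss, but to 5.95 and 2.32 in wild type. They were 10 of 10 higher in mutant normal skin than in wild type, by a median of 9.21, and 9 were called. The fat cell genes summed to 369 to 518 in mutant normal skin, 396 to 522 in hair loss and 433 to 439 in wild type, so by this sum wild type lay inside the mutant ranges. The sum is carried by the brightest probes, Cfd above all. The mean log2 level of the 10 genes, in which each counts alike, was 3.36 to 3.37 in wild type. It was 3.38 to 3.89 in mutant normal skin, barely without overlap, and 3.36 and 4.02 in the hair loss samples. That lack of overlap depended on Lep. Without Lep, with each gene centred on its own mean, mutant normal skin replicate 2 had -0.28, below wild type at -0.15 and -0.16. Other tissue lists differed from wild type as well. The 5 dermal fibroblast genes were 5 of 5 lower in mutant normal skin than in wild type (median -0.96, summed levels 467 to 1295 against 1314 to 1871), the 6 macrophage genes 6 of 6 lower (median -0.89) and the 12 muscle genes 11 of 12 lower (median -0.66), with 0 called in each. Sebaceous gland genes summed to 324 to 543 in mutant normal skin and 300 to 396 in wild type, and epidermal genes to 1377 to 1724 and 1272 to 1334. Hair cycle stage was not recorded in the labels, and the part of these tissue differences in the level of Lep was not tested.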

How the data were processed

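RNA from 8 skin samples was labelled with Cy3 and hybridised to Agilent SurePrint G3 mouse arrays, 1 array each. Per the file headers, the deposited intensity of a spot is the processed signal, which Feature Extraction 11.5.1.1 (per the submitters' processing notes) had corrected for background. The deposited log2 matrix of the authors equalled the log2 of this signal plus 1 constant per array, within 0.01 for all 55603 probes. That count leaves out outlier spots (118 to 210 per array) and 78 probes that lost all spots on an array.

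Values were log2 intensity averaged over spots minus the 75th percentile of the array. Probes well above background on at least 2 of 8 arrays were tested (30417). Symbols came from RefSeq through the accession of the probe, and a gene with several probes was represented by the brightest. A linear model of the 3 groups over all 8 arrays (limma 3.58.1, R 4.3.3) gave two-sided p-values, adjusted by Benjamini-Hochberg over all probes tested, with calls at adjusted p under 0.05. A second model of the 5 combinations of group and title name gave the comparisons within and between names. The procedure was also run on simulated data for mutant normal skin against wild type, with noise drawn separately for each array. That simulation cannot speak to samples sharing a title name, to slide row or to the paired comparisons. The number of arrays limits the precision.

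The 10 genes and all lists were chosen with earlier results of these data known. From each further fat list, at most 4 genes with the largest differences in a comparison were eligible to be named, if all arrays of the group with the higher mean had them well above background, and other lists are given as medians and summed levels. Genes most like the 10 were the 5 with the smallest root mean square distance to their mean course. A summed level adds the linear values, relative to the 75th percentile, of the genes of a list. Of 149 genes in the lists, 145 had a probe. Alternatives covered normalization, background correction, filters, the choice of probe, blocks, array weights and leaving out each array. Title name could not be shown to mark an animal, so it was no block in the main model. A result for 1 further list gene is not reported here.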

Additional observations from a re-analysis of the deposited data

How the results depend on the processing

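No fat cell gene was called in the main models, and the count of called members stayed at 0 under every alternative run except Mutant113 normal skin against wild type, where it was 1 (Lep). Signs turned for members in 13 of 190 values of hair loss minus mutant normal skin, 7 of 200 of mutant normal skin minus wild type and 8 of 180 of hair loss minus wild type. They turned in 5 of 140 for the difference between the title names in the hair loss effect, 13 of 160 for Mutant113 minus Mutant097 normal skin, 6 of 150 within Mutant097 and 2 of 150 within Mutant113. The causes of these shifts were not tested, apart from filters, which change the number of probes tested, and left-out arrays. The totals also count alternatives that could not turn a sign, such as another probe filter or leaving out an array outside the comparison.

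With quantile normalization, Plin4 was -0.033 for hair loss minus wild type, Fabp4 -0.016 within Mutant097 and Cidec 0.016 for Mutant113 minus Mutant097, where 146 probes were called, and 3 were called for the difference in the hair loss effect. Centring on probes above background on all arrays gave Cfd -0.0046 within Mutant113 and Cidec 0.090 between the names, with 44 probes called there. The deposited matrix gave Cidec 4e-04 between the names. The mean of the probes of a gene gave Cidec -0.31 for mutant normal skin minus wild type, -0.27 for hair loss minus wild type and 0.27 between the names. With no filter, 128 probes were called for mutant normal skin minus wild type, 183 for hair loss minus wild type and 19 between the names, and with a filter on all 8 arrays 64 were called for the first and 30 for the last, and 4 for the difference in the hair loss effect. One mean per title name and group called 0 probes against wild type in both comparisons.

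Slide row as a block gave Adipoq 0.074 and Cfd 0.0092 for hair loss minus mutant normal skin, and Plin4 -0.14 for hair loss minus wild type, with 856 probes called for mutant normal skin and 1332 for hair loss against wild type. Array weights gave Plin1 -0.0039 for hair loss minus mutant normal skin and called 114 and 83 probes against wild type and 193 between the names. Normexp on median signals, chosen after seeing the data because the mean signals planned for were not used here, gave Plin1 -0.0072, Plin4 -0.032 (hair loss minus wild type) and Fabp4 -0.061 (within Mutant097), and called 73 probes for mutant normal skin minus wild type, 265 for the difference in the hair loss effect and 289 between the names. Also added after seeing the data, Mutant097 alone against wild type gave Pparg -0.11, Lipe -0.19 and Plin5 0.12, and Mutant113 alone called 991 probes.

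Leaving out 1 array at a time, hair loss minus mutant normal skin ran from -0.76 to 0.40 for Adipoq, -0.25 to 0.10 for Cfd, -0.25 to 0.37 for Cidec, -0.82 to 0.34 for Lep, -0.044 to 0.60 for Lipe, -0.29 to 0.36 for Plin1, -0.33 to 0.15 for Plin4 and -0.34 to 0.56 for Pparg, with 0 to 11 probes called. Within Mutant097 it ran from -0.41 to 0.078 for Cfd, -0.13 to 0.54 for Fabp4, -0.19 to 0.59 for Lipe and -0.45 to 0.10 for Plin1, and within Mutant113 from -0.066 to 0.081 for Cfd. Hair loss minus wild type ran from -0.37 to 0.79 for Adipoq, -0.20 to 0.42 for Cidec, -0.16 to 0.33 for Plin4, -0.24 to 0.66 for Pparg and -0.79 to 0.039 for Camp, with 0 to 708 probes called. Mutant normal skin minus wild type ran from -0.0079 to 0.11 for Cidec, -0.055 to 0.26 for Lipe, -0.033 to 0.23 for Pparg and -0.65 to 0.013 for Plin5, with 0 to 191 called. The difference in the hair loss effect ran from -0.071 to 0.42 for Cfd, -0.34 to 0.34 for Fabp4, -0.23 to 0.55 for Lipe and -0.075 to 0.71 for Retn, with 0 to 25 called. Mutant113 minus Mutant097 ran from -0.068 to 0.42 for Cfd, -0.18 to 0.18 for Cidec, -0.12 to 0.56 for Fabp4, -0.34 to 0.47 for Lep, -0.053 to 0.50 for Plin1 and -0.31 to 0.48 for Retn, with 6 to 99 called. A group left with 1 array is assumed to vary like the others.

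With the title name as a replicate block, the differences between hair loss and mutant normal skin could not change. Each name had 1 hair loss and 2 normal arrays, so the median stayed at -0.02 with 5 of 10 genes higher. Only the error could change, and this fit also left out the wild type arrays, so its error did not change through the block alone. Retn, at -0.59, had an adjusted p of 0.707, and 0 members and 0 probes were called. The hair loss sample and the normal skin of 1 name correlated by 0.13 in their deviations. With 2 names the deviations of 1 name mirror those of the other, so this is a single value. The labels do not say that a name marks an animal. The members were well above background on all 8 arrays, yet the Lep difference was smaller under the normexp setting. There it was 0.83 instead of 1.71 for mutant normal skin minus wild type, and 0.71 instead of 1.47 for hair loss minus wild type. That setting changed the signal, the background correction, the offset (50) and the normalization together, and the part of each was not tested. The few arrays limit the precision, with intervals for hair loss minus mutant normal skin reaching from -1.20 for Retn to 0.99 for Lipe.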
